A study of Mus musculus with 6 samples.

Results

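The retina of mice given 10 times the lower amount of titanium dioxide nanoparticles (the group labelled 10PTC) was compared with that of mice given the lower amount itself (PTC), gene by gene, 7 days after injection into the vitreous of the right eye. All 6 arrays of the series entered the comparison, 3 per dose, and 26141 genes or named transcripts were measured. The members are therefore the 3 arrays titled for 10PTC and the 3 titled for PTC, as their titles give the group. Mice were C57BL/6 males, 8 weeks old, with 12 per group, and 4 retinas were pooled into each tube before RNA was extracted with Trizol. On every array the treated pool was labelled with Cy5 and RNA of eyes injected with phosphate-buffered saline (PBS) with Cy3, so a log2 ratio above 0 means more signal in the treated pool than in the control pool. The labels give the doses as PTC and 10 times PTC and do not say what the letters mean. The labels do not say whether the PBS channels of the 6 arrays hold the same control pool, nor whether the pools of a dose share mice, so the tests measure the spread between these pools.

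Titanium dioxide nanoparticles are poorly soluble particles that cells take up by endocytosis. In an injured retina the Muller glia, which span its whole depth, become reactive and make intermediate filaments and secreted proteins, while microglia, the resident macrophages, clear debris and present antigen. Cells under load also use 2 widely shared programmes. The unfolded protein response raises chaperones of the endoplasmic reticulum (ER) through the factors Atf6 and Xbp1, and the heat shock response raises chaperones of the cytosol through Hsf1. Photoreceptors live largely on glycolysis and depend on the retinal pigment epithelium, a neighbouring cell layer that returns the visual pigment's chromophore to them.

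The arrays came on 2 slides, 1 with PTC replicates 1 and 2 and the other (slide 2) with PTC replicate 3 and all 3 10PTC arrays. The dose comparison is thus in part a slide comparison, and each difference below is set beside the difference within slide 2, where 3 10PTC arrays face PTC replicate 3 alone. On slide 1, 71.0% and 71.7% of gene spots stood well above background, and on slide 2 82.1% to 85.5% did; no spot was saturated. PTC replicate 1 stood apart in glial, microglial and interferon genes, with a median log2 ratio of 1.85 over the glial reaction list, against 0.65 and 1.04 on the other PTC arrays. RNA of neighbouring tissue also differed between arrays. The corneal keratin Krt12 had log2 ratios of 3.32, 4.22 and -1.42 on the PTC arrays and -1.50, -0.08 and -1.65 on the 10PTC arrays, so that the mean difference between doses of -3.12 turned to 0.34 within slide 2. All 21 of 21 rod photoreceptor genes stood well above background in Cy5 on all 6 arrays. So did 21251 of all 26141 genes, so this count is not a test of the tissue label.

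No gene passed the test between doses. In the limma fit over 6 arrays, 0 of 26141 genes (0%) had a Benjamini-Hochberg adjusted p under 0.05, the smallest adjusted p was 0.230, and 1199 genes higher and 933 lower at 10PTC had an unadjusted p under 0.05. Within slide 2 the count was also 0, with a smallest adjusted p of 0.127 and 1043 higher and 911 lower genes at an unadjusted p under 0.05. The median difference of log2 ratios (10PTC minus PTC) was 0.003, its median size regardless of sign was 0.074, and the median standard error (SE) was 0.079. A missed threshold does not show that the doses acted alike. What follows are therefore values: a member is called above, or below, where all 3 10PTC arrays lay beyond all 3 PTC arrays. Of all genes, 2332 (8.92%) lay above and 1724 (6.60%) below in this sense, and each list of genes is read against these shares.

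Beside these shares, the lists with the largest shares above were ER protein folding, glycolysis and cytosolic heat shock, and those with the largest shares below were the respiratory chain, the pigment epithelium and the cytosolic ribosome, among lists of at least 15 measured genes. Of 25 ER chaperones and folding enzymes 10 lay above and 0 below. Of 25 glycolysis and hypoxia genes it was 9 and 0, and of 18 heat shock genes 6 and 0. In the other direction, 8 of 28 respiratory chain subunits, 6 of 29 ribosomal proteins and 4 of 15 pigment epithelium genes lay below. These counts have no test of their own, and the genes of a list are not independent of each other.

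**Figure D1:**
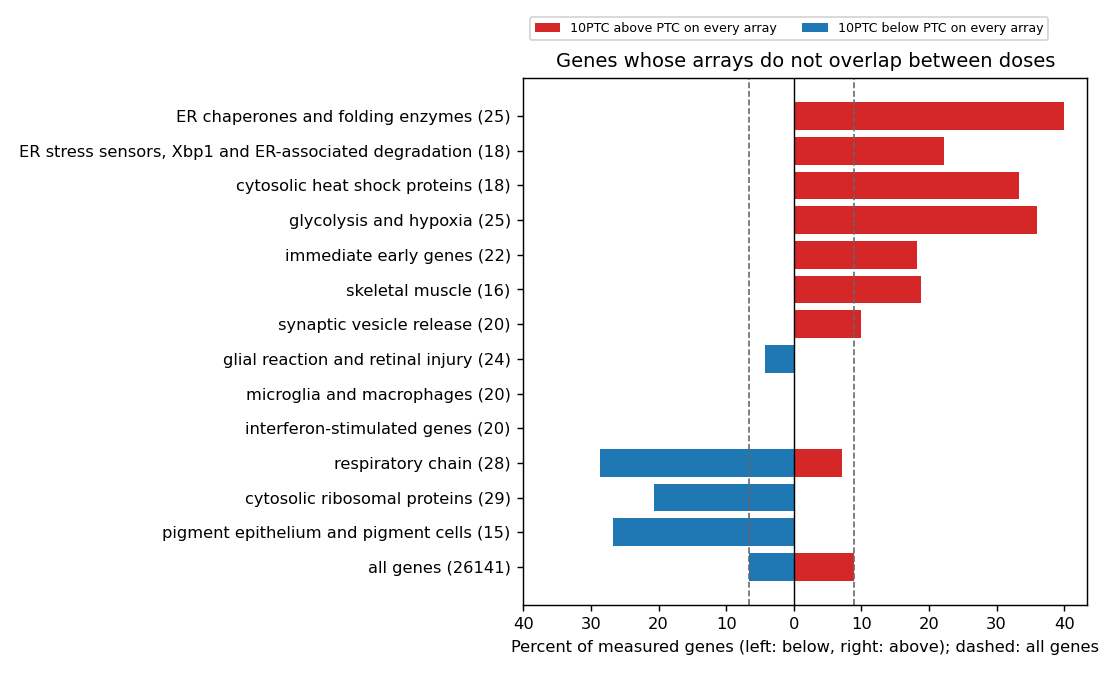
Percent of measured genes in each list (number measured in brackets) whose 3 10PTC arrays all lay above (red, right) or all below (blue, left) the 3 PTC arrays; dashed lines mark the shares over all genes, 8.92% and 6.60%. The ER chaperone, heat shock and glycolysis bars reach furthest right, and no microglial or interferon gene appears on either side.

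The gene with the largest difference on the higher side was Prss56, a serine protease made by Muller glia and needed for normal eye growth. Its log2 ratio was 0.74, 0.31 and 0.37 on PTC replicates 1, 2 and 3 and 2.40, 2.98 and 2.10 on the 10PTC arrays. All 3 high-dose arrays thus stood well above every low-dose array, and on both doses the gene lay above PBS. The difference was 2.02 (SE 0.22, adjusted p = 0.230, limma over 6 arrays), a 4.06-fold difference, and 2.12 within slide 2. In the single channels the Cy5 signal differed by 2.60 and the Cy3 signal of the PBS pool by 0.57, both higher on the 10PTC arrays, so that the PBS channel made the ratio difference smaller. Prss56 was also the only gene with an at least 2-fold higher value at 10PTC and no overlap between doses. Its probe lies at chr1:89083595-89083751 in the mm9 coordinates of the array design.

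**Figure D2:**
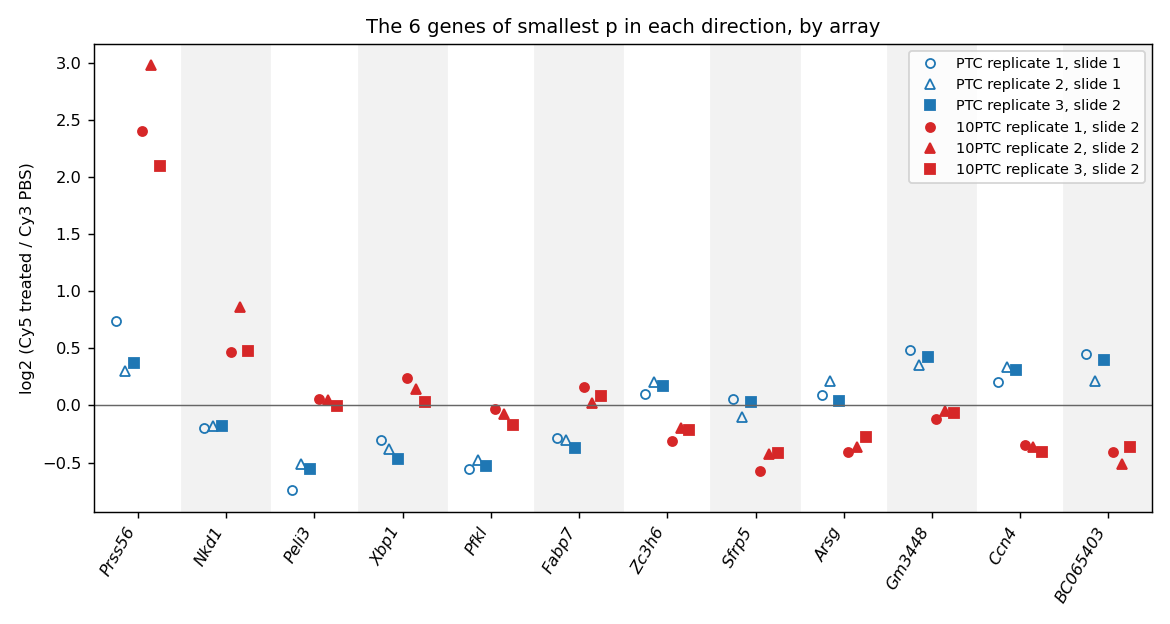
Log2 ratio of treated over PBS signal on each of the 6 arrays for the 6 genes of smallest p in each direction, ordered by the 10PTC minus PTC difference; blue marks PTC and red 10PTC, and open symbols are the arrays of slide 1. Prss56 reaches 2.98 at 10PTC, and in the other genes all arrays of both doses lie within 1 log2 unit of PBS.

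The other genes of smallest p on the higher side were Peli3, Nkd1, Xbp1, Pfkl and Fabp7, and none passed. Peli3, an E3 ubiquitin ligase of innate immune signalling, lay below PBS at the low dose (-0.74, -0.51 and -0.56) and close to it at the high dose (0.06, 0.05 and -0.01), a difference of 0.64 (SE 0.08, limma adjusted p = 0.289). Nkd1, an inhibitor of Wnt signalling that is itself a Wnt target, had ratios of -0.20, -0.18 and -0.18 at PTC and 0.47, 0.86 and 0.48 at 10PTC. The low-dose arrays of Nkd1 were thus tightly grouped under PBS and the high-dose arrays above it, by 0.79 (SE 0.11, limma adjusted p = 0.344), and a second, dimmer probe gave 0.45. Fabp7, a fatty acid binding protein of glia, went from -0.29, -0.30 and -0.37 to 0.16, 0.03 and 0.08, but its Cy5 difference was 0.13 and its Cy3 difference -0.27, so most of the difference in ratio lay in the PBS channel over 6 arrays. Within slide 2 the Fabp7 difference of 0.46 was in Cy5 (0.46) and not in Cy3 (0.002). Xbp1 and Pfkl are described with their pathways.

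The genes of smallest p on the lower side were Ccn4, BC065403, Gm3448, Arsg, Sfrp5 and Zc3h6. Ccn4, a secreted matrix protein induced by Wnt signalling (earlier named Wisp1), had ratios of 0.21, 0.33 and 0.31 at PTC and -0.34, -0.36 and -0.41 at 10PTC. It lay above PBS on all low-dose arrays and below it on all high-dose arrays, with a difference of -0.66 (SE 0.06, limma adjusted p = 0.230), -0.69 within slide 2 and -0.59 at a second probe. The transcript BC065403 behaved alike, with 0.45, 0.21 and 0.39 at PTC and -0.40, -0.51 and -0.36 at 10PTC (difference -0.78, SE 0.08). On the Cy5 channel alone both passed the test, Ccn4 at an adjusted p of 0.040 and BC065403 at 0.039 in limma, among 18 higher and 2 lower genes; the Cy3 channel of the PBS pools, compared between the same arrays, gave 26 higher and 1 lower. Sfrp5, a secreted antagonist of Wnt ligands, went from 0.05, -0.10 and 0.03 to -0.57, -0.43 and -0.41. Arsg, a lysosomal sulfatase, had 0.09, 0.22 and 0.04 at PTC and -0.41, -0.36 and -0.27 at 10PTC, a difference of -0.47 (SE 0.07). Zc3h6, a zinc finger protein gene, went from 0.10, 0.20 and 0.17 to -0.31, -0.20 and -0.21 at its brightest probe, while its other probes differed by -0.20 and -0.11, with arrays that overlap. For the predicted gene Gm3448, the difference of -0.50 (SE 0.06) was -0.24 in Cy5 and 0.26 in Cy3 over 6 arrays, and -0.55 and -0.05 within slide 2.

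The 4 genes with an at least 2-fold lower value and no overlap rest on slide 1. Col1a1, a chain of type I collagen, had 0.61, 0.10 and -0.94 at PTC and -1.26, -0.99 and -1.40 at 10PTC, and its difference of -1.14 was -0.28 within slide 2. The others were Ly6g6c, Rbpjl and the corneal aldehyde dehydrogenase Aldh3a1, whose differences of -1.10, -1.05 and -1.01 became -0.11, -0.07 and -0.30 within slide 2.

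Among the ER genes that lay above was Xbp1, the transcription factor activated by ER stress. It had -0.30, -0.38 and -0.47 at PTC and 0.24, 0.15 and 0.03 at 10PTC; below PBS on every low-dose array and above it on every high-dose array, it differed by 0.52 (SE 0.08, limma adjusted p = 0.432) and by 0.61 within slide 2. Hspa5, the main ER chaperone, also called BiP, had 0.04, -0.48 and -0.18 at PTC and 0.33, 0.27 and 0.27 at 10PTC, a difference of 0.50 (SE 0.12, limma adjusted p = 0.566). Its high-dose arrays were close together, whereas its low-dose arrays spread from -0.48 to 0.04. Calr, the lectin chaperone calreticulin, had -0.25, -0.43 and -0.37 and 0.05, 0.15 and 0.01 (difference 0.42, SE 0.07). Creld2, a secreted ER stress protein, had -0.07, -0.15 and -0.16 and 0.28, 0.28 and 0.17 (difference 0.37, SE 0.06). Manf, a secreted ER protein that protects neurons, had -0.11, -0.37 and -0.19 and 0.27, 0.19 and 0.16 (difference 0.42, SE 0.08). Apart from Hspa5 on PTC replicate 1, the low-dose values of these 5 genes lay below PBS, and all their high-dose values lay above it.

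The other ER chaperones and folding enzymes that lay above were Sdf2l1, Pdia6, Fkbp2, Dnajb11, Hsp90b1 and Dnajc3, with differences from 0.14 to 0.42. Sdf2l1, part of the Hspa5 chaperone complex, had -0.05, -0.57 and -0.33 at PTC and 0.03, 0.27 and 0.02 at 10PTC. Hsp90b1, the ER member of the Hsp90 family, had 0.14, 0.07 and -0.04 and 0.30, 0.24 and 0.23. Pdia6, a disulfide isomerase, had 0.13, -0.04 and 0.07 and 0.28, 0.31 and 0.27. Dimmer probes of Pdia6 and Dnajb11 overlapped and differed by 0.10 and 0.06. Not every member of the list stood apart: the lectin chaperone Canx differed by -0.10 (SE 0.06) and the oxidase Ero1b by 0.03 (SE 0.09), and their arrays overlapped. The list median was 0.11 over 6 arrays and 0.14 within slide 2, beside 0.003 and 0.012 over all genes. Within slide 2 it was 0.13 in Cy5 and -0.03 in Cy3.

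Among 18 genes of the stress sensors and of ER-associated degradation, which returns misfolded proteins to the cytosol for destruction, 4 lay above. They were Xbp1, Derl3, Syvn1 and Edem1. Syvn1, the ubiquitin ligase of that route, had -0.25, -0.07 and -0.22 at PTC and 0.01, 0.09 and -0.05 at 10PTC. Derl3, a membrane component of it, had -0.35, -0.13 and -0.29 and 0.15, 0.23 and -0.001 (difference 0.38, SE 0.09). For Derl3 and Edem1 the difference over 6 arrays was largely one of the PBS channel, with Cy5 differences of 0.07 and -0.01 and Cy3 differences of -0.31 and -0.20; the ratio of Edem1 differed by 0.18 and that of Derl3 within slide 2 was in Cy5 (0.40 against -0.02 in Cy3). The sensor Atf6 differed by 0.08 (SE 0.08), with overlapping arrays. Over 6 arrays the median difference of this list was 0.06 in the ratio, -0.02 in Cy5 and -0.09 in Cy3. Within slide 2 these medians were 0.06, 0.12 and 0.02. Of 24 genes of the Atf4 list, which holds that stress factor and its targets, 1 lay above and 0 below, with a median of 0.02. The member above was Atf4 itself, with 0.32, 0.36 and 0.16 at PTC and 0.37, 0.55 and 0.38 at 10PTC (difference 0.16, SE 0.08) and 0.005 at a second, dimmer probe whose arrays overlapped. Of 25 genes of ER translocation and secretion 2 lay above, with a median of 0.004.

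**Figure D3:**
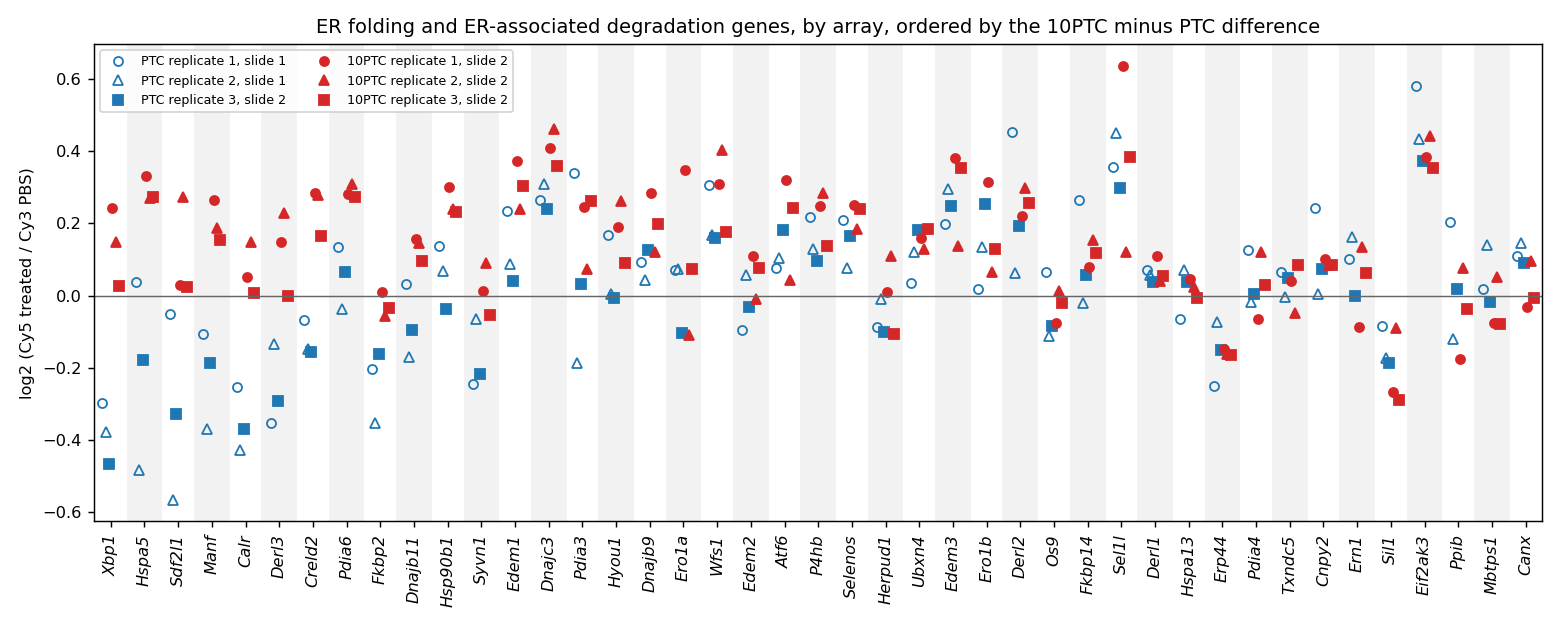
Log2 ratio on each array for the 43 measured genes of ER folding, ER stress sensing and ER-associated degradation, ordered by the 10PTC minus PTC difference (PTC blue, 10PTC red, slide 1 open). From Xbp1 to Dnajc3 the red symbols stand mostly above the blue, and from Pdia3 on they mix.

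Several of these genes carry in their promoter the ER stress element, the sequence bound by Atf6 with the general factor NF-Y, and the promoters are shown because most of the ER members that carry it lay above. The element was searched as CCAAT, any 9 bases, then CCACG, on both strands, in the RefSeq promoter windows (assembly GRCm38.p6; 250 bases before to 50 after each start). It was found in 37 of 27025 genes (0.137%), and in 8 of the 21 measured ER chaperones with a window and 2 of 16 stress sensor and degradation genes. In the lines below, bases are in lower case, the element is in capitals, and each sequence runs 5′ to 3′ along the gene's own strand; elements of Calr, Derl3, Creld2, Ero1b and the second of Hsp90b1 lie on the opposite strand and so read as the reverse complement.
Hspa5, chr2:34771840-34772089 (plus strand), the 250 bases before the start, with the element 65 bases before it: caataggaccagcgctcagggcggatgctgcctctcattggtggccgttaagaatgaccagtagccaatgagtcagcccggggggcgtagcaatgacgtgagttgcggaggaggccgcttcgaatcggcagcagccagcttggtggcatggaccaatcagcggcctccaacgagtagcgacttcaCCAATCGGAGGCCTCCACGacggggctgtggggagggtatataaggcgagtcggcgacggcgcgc
Creld2, chr15:88819500-88819558 (plus strand), 126 bases before the start: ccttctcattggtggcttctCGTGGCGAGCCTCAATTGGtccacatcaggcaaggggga
Calr, chr8:84847055-84847113 (minus strand), 162 bases before the start: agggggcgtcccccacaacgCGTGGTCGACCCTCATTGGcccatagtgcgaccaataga
Pdia6, chr12:17266471-17266529 (plus strand), 98 bases before the start: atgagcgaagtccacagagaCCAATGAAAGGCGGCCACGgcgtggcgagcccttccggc
Hsp90b1, chr10:86705513-86705571 (minus strand), 107 bases before the start: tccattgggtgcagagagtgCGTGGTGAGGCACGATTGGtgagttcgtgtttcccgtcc
Dnajc3, chr14:118937807-118937865 (plus strand), 105 bases before the start: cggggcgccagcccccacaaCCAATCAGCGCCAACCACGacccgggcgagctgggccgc
Syvn1, chr19:6046512-6046570 (plus strand), 44 bases before the start: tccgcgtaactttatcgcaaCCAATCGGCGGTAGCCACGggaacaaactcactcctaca
Derl3, chr10:75893222-75893280 (plus strand), 156 bases before the start: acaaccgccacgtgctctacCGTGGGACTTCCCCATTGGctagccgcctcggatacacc
Ero1b, chr13:12565662-12565720 (plus strand), 201 bases before the start: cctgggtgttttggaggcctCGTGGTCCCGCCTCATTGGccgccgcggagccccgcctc
Canx, chr11:50325780-50325838 (minus strand), 145 bases before the start: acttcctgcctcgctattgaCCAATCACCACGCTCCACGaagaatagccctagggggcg
Of these 10 genes the first 8 lay above, with a median difference over the 10 of 0.218 (0.265 within slide 2), and the last pair, Ero1b and Canx, did not. Of the 14 measured genes that carry it outside the ER lists, 0 lay above and 0 below, with a median of 0.012, beside 9.9% above among the 14857 measured genes whose window holds no such match. Xbp1, Manf and Sdf2l1 lay above without a match to these letters in the window. The 10 genes belong to ER lists and are shown because most lay above, so their count is not a test of the element. A match is a description of the sequence, and no binding was measured here.

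Cytosolic heat shock genes lay above in 6 of 18 cases, namely Hspa8, Hspa1a, Hsph1, Chordc1, Dnaja1 and Ahsa1. Hsph1, a nucleotide exchange factor for Hsp70, had -0.15, -0.12 and -0.18 at PTC and 0.25, 0.26 and 0.07 at 10PTC, all low-dose arrays below PBS and all high-dose arrays above it (difference 0.35, SE 0.07, limma adjusted p = 0.566). Hspa8, the constitutive Hsp70, had 0.05, 0.17 and 0.08 and 0.53, 0.44 and 0.39. Over 6 arrays its Cy5 signal differed by 0.10 and its Cy3 signal by -0.25, so the PBS channel held the larger part. A dimmer probe of Hspa8 differed by 0.11 with overlapping arrays, and another lay above by 0.38. Hspa1a, the inducible Hsp70, had -0.25, -0.33 and -0.22 and 0.29, -0.08 and 0.03, a difference of 0.35 (SE 0.10). The list median was 0.14, and 0.15 within slide 2.

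Of the 9 glycolysis and hypoxia genes that lay above, Eno1 was above PBS on all low-dose arrays, Pfkp on PTC replicate 2, and the others on no low-dose array. At the high dose Pfkl, Tpi1 and Slc16a3 were still below PBS on all arrays, and the others above it. Pfkl, the liver-type phosphofructokinase, had -0.56, -0.47 and -0.53 at PTC and -0.03, -0.08 and -0.17 at 10PTC, a difference of 0.43 (SE 0.06, limma adjusted p = 0.432) and the smallest p of the list. Tpi1, triose phosphate isomerase, had -0.52, -0.40 and -0.47 and -0.01, -0.17 and -0.05 (difference 0.39, SE 0.07). Aldoa, aldolase A, had -0.26, -0.004 and -0.22 and 0.31, 0.17 and 0.18, and Gpi1, glucose phosphate isomerase, -0.30, -0.06 and -0.30 and 0.19, 0.14 and 0.03. In each of the 4 the doses did not overlap. Pfkp, Pgam1, Gapdh, Eno1 and the lactate exporter Slc16a3 also lay above, with differences between 0.19 and 0.37. Dimmer probes, with overlapping arrays, gave 0.17 for Tpi1, 0.10 for Pfkp and 0.10 to 0.11 for Gapdh. Other dimmer probes of Gapdh lay above, by 0.26 to 0.27. Not every member stood apart: Vegfa, the vascular growth factor induced by hypoxia, differed by 0.11 (SE 0.09), with 0.24, 0.11 and -0.02 at PTC and 0.31, 0.10 and 0.24 at 10PTC. The median of the list was 0.17 over 6 arrays and 0.24 within slide 2. In Cy5 it was 0.12 over 6 arrays and 0.22 within slide 2, and in Cy3 -0.07 and -0.01, so that over 6 arrays part of it lay in the PBS channel.

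**Figure D4:**
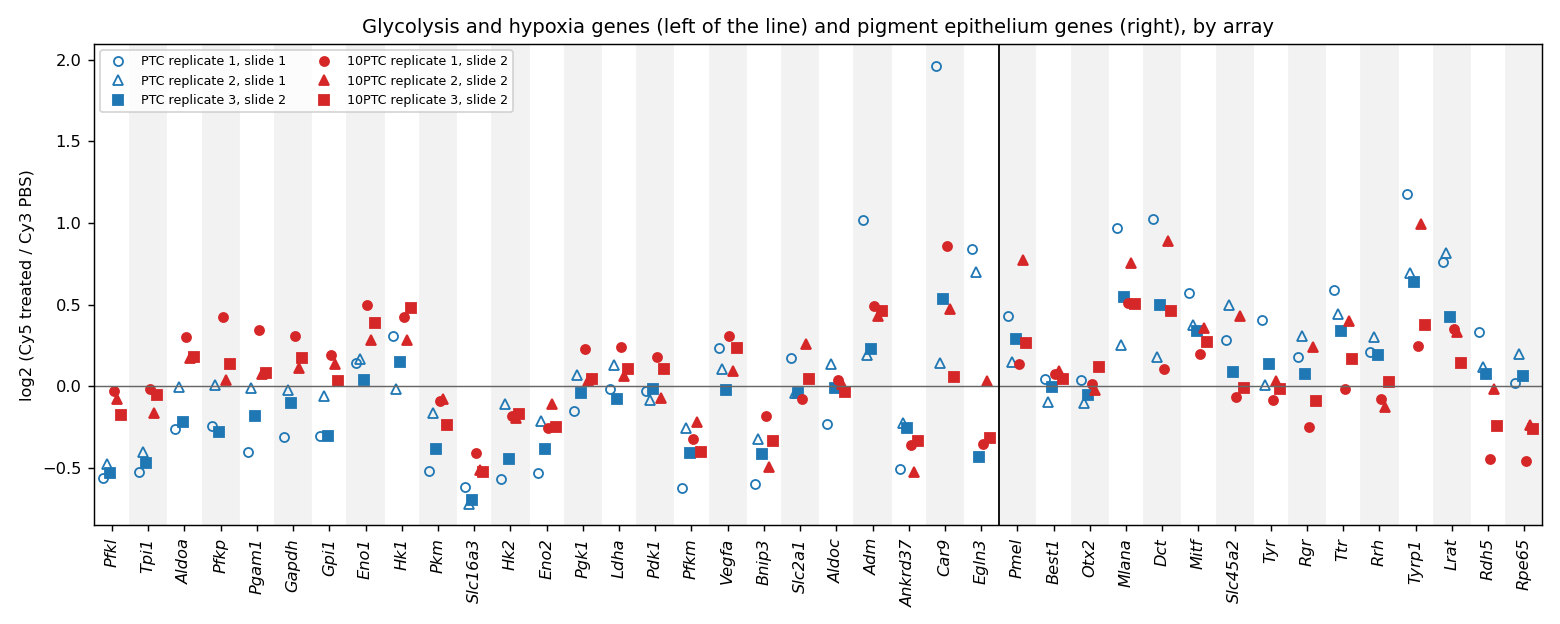
Log2 ratio on each array for 25 glycolysis and hypoxia genes (left of the line) and 15 pigment epithelium genes (right), each ordered by the 10PTC minus PTC difference (PTC blue, 10PTC red, slide 1 open). Glycolytic enzymes from Pfkl to Eno1 have every red symbol above every blue one; Rrh, Lrat, Rdh5 and Rpe65 have every red symbol below.

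Of 22 immediate early genes, which neurons and glia switch on within minutes of a stimulus, 4 lay above and 0 below. Npas4, a factor induced by neuronal activity, had -0.73, -0.43 and -0.46 at PTC and -0.03, 0.15 and -0.17 at 10PTC, a difference of 0.53 (SE 0.11, limma adjusted p = 0.566). Dusp1, a phosphatase of MAP kinases, had -0.37, -0.28 and -0.20 and -0.02, 0.07 and 0.003; Nr4a2, a nuclear receptor, -0.59, -0.43 and -0.42 and -0.24, -0.21 and -0.29; and Btg2, an antiproliferative gene, 0.06, -0.07 and 0.03 and 0.27, 0.15 and 0.29. The first 3 of these were below PBS on every low-dose array, but a second, dimmer probe of Nr4a2 lay above PBS on all arrays, overlapped and differed by 0.000. Fos, by contrast, overlapped (0.53, 0.22 and 0.33 and 0.59, 0.42 and 0.75). The median of the list, 0.13 over 6 arrays, was 0.03 without PTC replicate 2 and 0.26 without PTC replicate 1.

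Most genes of the cytosolic ribosome and the respiratory chain overlapped between doses, and the differences of those that lay below were small. Of the ribosomal proteins, Rpsa, Rpl7, Rpl4, Rps14 and Rpl10a were among those that lay below, by -0.06 to -0.22. A second, slightly dimmer probe of Rpl10a overlapped and differed by 0.006. Rpl4 had 0.50, 0.49 and 0.52 at PTC and 0.42, 0.28 and 0.32 at 10PTC, and Rpl7 had 0.66, 0.47 and 0.61 and 0.42, 0.34 and 0.44; both stayed above PBS at both doses. Rpsa had 0.21, 0.04 and 0.18 and -0.13, 0.04 and -0.13 at its brightest probe and differed by 0.002 to -0.15 at 3 other probes. The list median was -0.08, and -0.12 within slide 2, and -0.003 with arrays centred on their median in place of loess. In the respiratory chain, Cox6c, a subunit of cytochrome c oxidase, had -0.06, -0.03 and 0.11 at PTC and -0.22, -0.18 and -0.14 at 10PTC (difference -0.18, SE 0.07). Ndufs4, an accessory subunit of complex I, had 0.08, -0.03 and 0.11 and -0.18, -0.13 and -0.05 (difference -0.18, SE 0.07). On the other side, 2 members of the chain, Cox4i1 and Cox5a, lay above, by 0.07 and 0.09. The median over its 28 genes was -0.06, which turned to 0.007 with median centring, so the direction of this list depends on the scaling.

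In the pigment epithelium list the genes that lay below were those of the visual cycle. Rpe65, the isomerase of the visual cycle, had 0.02, 0.20 and 0.06 at PTC and -0.46, -0.23 and -0.26 at 10PTC (difference -0.41, SE 0.08, limma adjusted p = 0.566). It was at or slightly above PBS on each low-dose array and below it on each high-dose array. Lrat, which makes the retinyl esters that Rpe65 uses, had 0.77, 0.82 and 0.43 and 0.35, 0.34 and 0.14 (difference -0.39, SE 0.12). Rdh5, the next enzyme, had 0.33, 0.12 and 0.08 and -0.44, -0.02 and -0.24 (difference -0.41, SE 0.12). Rrh, the opsin peropsin, had 0.21, 0.31 and 0.19 and -0.08, -0.12 and 0.03, and a second probe gave -0.23. Within slide 2 the 4 differences were -0.38, -0.15, -0.31 and -0.25. The pigment gene Tyrp1 of the same list overlapped, with 1.18, 0.69 and 0.64 at PTC and 0.25, 1.00 and 0.38 at 10PTC. These are bulk samples of dissected retina, in which fewer cells of a type and less RNA per cell cannot be told apart; how much pigment epithelium stayed with each retina was not tested.

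Skeletal muscle RNA was strongly below PBS on all arrays, less so at the high dose. All 16 muscle genes had a positive difference between doses, beside 51.1% of all genes. Of the 16, 3 lay above without overlap (Ckm, Tnnc2 and Mylpf), beside 8.92% of all genes. In Cy5, 15 stood well above background on all arrays, as did 21251 of all 26141 genes. Ckm, muscle creatine kinase, had -2.17, -1.97 and -2.26 at PTC and -1.77, -1.69 and -1.92 at 10PTC, a difference of 0.34 (SE 0.10, limma adjusted p = 0.566). The list's median ratio was -2.60, -2.55 and -3.42 on the PTC arrays and -2.30, -2.19 and -2.46 on the 10PTC arrays. PTC replicate 3 was the lowest, and without it the median difference of 0.49 was 0.16. With scale normalization the median difference over all arrays was 0.258, and 14 of 16 genes had a positive difference. Of the glycolytic enzymes above, muscle expresses some strongly, among them Aldoa. The part of muscle RNA in the values of these enzymes was not tested. Mgp, a matrix protein of connective tissue and vessels, had 1.34, 0.51 and 1.17 at PTC and -0.03, 0.05 and 0.46 at 10PTC and differed by -0.84 (SE 0.22), and by -1.01 within slide 2.

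Glial reaction, microglial and interferon genes, which lay above PBS at both doses, did not separate the doses. Gfap, the intermediate filament of reactive glia, had 2.33, 1.23 and 1.28 at PTC and 1.30, 1.53 and 1.48 at 10PTC. The high-dose arrays lay inside the range of the low-dose arrays, and the difference was -0.17 (SE 0.27, limma adjusted p = 0.877), 0.16 within slide 2, and 0.03 and 0.15 at dimmer probes. The injury factor Atf3 had 1.69, 0.44 and 1.07 and 1.17, 1.37 and 1.41, a difference of 0.25 (SE 0.28). Cebpd, a factor of the acute phase response, had 2.84, 1.34 and 1.91 and 2.89, 2.42 and 2.59 (difference 0.60, SE 0.34), and Lyz2, lysozyme of macrophages, 2.77, 1.19 and 1.79 and 1.48, 1.43 and 1.49 (difference -0.45, SE 0.34). Of 24 glial reaction genes 0 lay above and 1 below, the latter Chil1, a secreted chitinase-like protein, with 2.88, 1.39 and 1.72 and 1.32, 1.26 and 1.10. No microglial and no interferon gene, of 20 each, lay above or below.

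The doses differed more in how far their arrays agreed in these genes. The median standard deviation (SD, n = 3) over the glial reaction list was 0.648 at PTC and 0.126 at 10PTC, and 23 of its 24 genes had the larger SD at PTC. For microglial genes the medians were 0.495 and 0.105 (19 of 20 genes), and for interferon genes 0.615 and 0.205 (20 of 20). Over all genes they were 0.099 and 0.074, with the larger SD at PTC for 64.0% of genes. The SD of the gene-wise difference between the 2 PTC arrays of slide 1 was 0.297. Between 10PTC arrays, which share slide 2, it was 0.143 to 0.207. Slide 1 held only PTC arrays and had fewer spots well above background, so dose and slide cannot be told apart as sources of the spread. The order of the PTC arrays was the same in each of these lists, replicate 1 highest and replicate 2 lowest. Median interferon ratios, for example, were 1.51, 0.28 and 0.51 at PTC and 0.66, 0.70 and 1.00 at 10PTC. Without PTC replicate 1, 11 of 24 glial reaction genes and 9 of 20 interferon genes lay above, beside 15.2% of all genes with 3 arrays against 2. The median differences of these 2 lists, -0.02 and -0.08 over 6 arrays, were then 0.30 and 0.27. Without PTC replicate 2 in place of replicate 1, they were -0.232 and -0.309. The sign thus depended on which PTC array was left out. For microglial genes 1 of 20 lay above without PTC replicate 1. Their median difference, -0.17 over 6 arrays, was 0.06 without replicate 1 and -0.445 without replicate 2. On slide 2 alone it was -0.19, and 12 of 20 lay below, beside 25.0% of all genes.

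**Figure D5:**
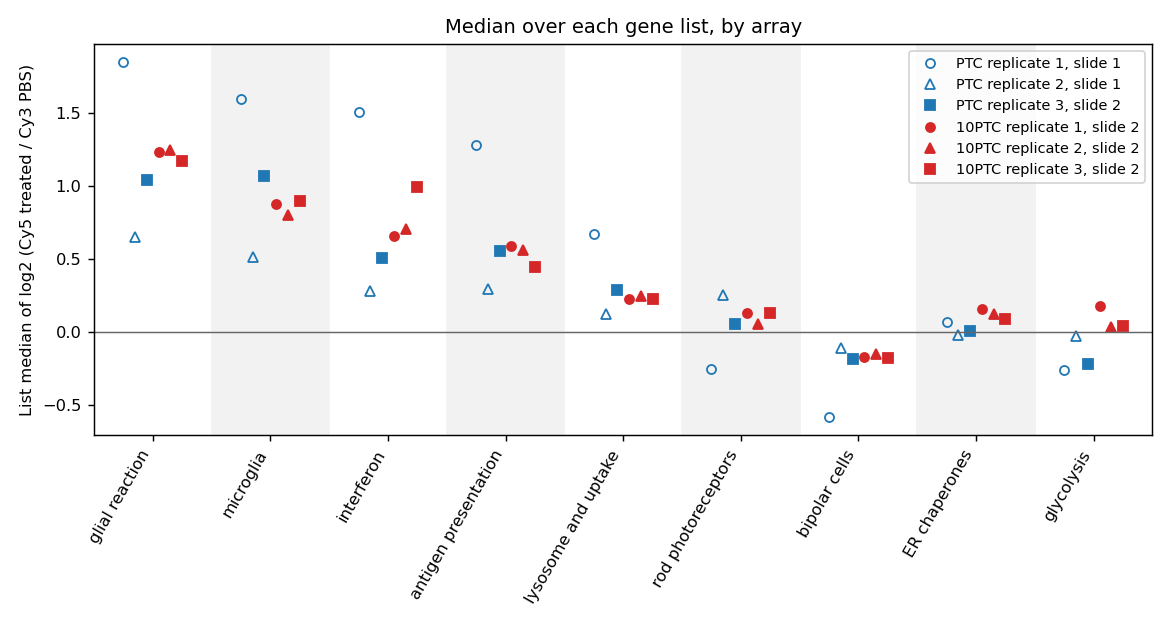
Median log2 ratio over each of 9 gene lists on each array (PTC blue, 10PTC red, slide 1 open). In the glial, microglial, interferon and antigen presentation lists PTC replicate 1 is highest and PTC replicate 2 lowest with the red symbols between them, whereas in the glycolysis list the red symbols lie above the blue.

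The same lists were also counted without PTC replicate 1. Without it, 15 of 25 ER chaperones, 9 of 18 heat shock genes, 11 of 25 glycolysis genes and 16 of 22 immediate early genes lay above, beside the 15.2% of all genes. Likewise 10 of 28 respiratory chain, 7 of 29 ribosomal and 4 of 15 pigment epithelium genes lay below, beside 11.9%. A gene beyond all PTC arrays is also beyond any part of them, so no list's share can fall when a PTC array is dropped. Over all arrays the shares of these lists already exceeded 15.2% above or 11.9% below. That they exceeded the shares of all genes without PTC replicate 1 was thus fixed and is not a test. On slide 2 alone, with 1 PTC array, 15 ER chaperones, 13 heat shock, 19 glycolysis and 17 immediate early genes lay above it, beside 31.1% of all genes. In that slide 22 ribosomal, 16 respiratory chain and 5 pigment epithelium genes lay below, beside 25.0%. The pigment epithelium share was thus nearer to that of all genes there. Only the immediate early and ribosomal lists had shares over all arrays under the slide 2 shares of all genes. Only for them was the outcome on slide 2 open.

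Neurons and vessels showed few members apart. Of 21 rod genes Rcvrn, the calcium sensor recoverin, and Nr2e3, a rod fate factor, lay above. Rcvrn had -0.39, -0.05 and -0.24 at PTC and 0.13, 0.15 and 0.10 at 10PTC (difference 0.36, SE 0.09), and Nr2e3 -0.27, 0.18 and -0.07 and 0.24, 0.22 and 0.19. In the synaptic vesicle list Syn1 and Syp lay above, 2 of 20, near the 8.92% of all genes. Syp, synaptophysin, had -0.42, -0.30 and -0.38 and -0.17, -0.14 and -0.14 (difference 0.22, SE 0.06). In the endothelium Cldn5, the tight junction protein of the blood-retina barrier, had -0.23, -0.33 and -0.37 and 0.07, 0.24 and -0.09 (difference 0.38, SE 0.09, limma adjusted p = 0.566). Of 22 Nrf2 targets and antioxidant genes 1 lay above (G6pdx, a dehydrogenase of the pentose phosphate pathway, by 0.08) and 2 below, the latter 9.1%, near the 6.60% of all genes. They were Me1, malic enzyme, with 0.41, 0.34 and 0.36 and 0.19, 0.12 and 0.17, and Nqo1, a quinone reductase, with 0.21, -0.14 and -0.01 and -0.28, -0.21 and -0.22. Bipolar cell genes had 0 above and 0 below of 16. Of 14 cone genes 0 lay above and 1 below. Without PTC replicate 1, 7 of 21 rod and 6 of 17 ganglion cell genes lay below, beside 11.9% of all genes. In these 2 lists 2 and 1 lay above, beside 15.2%. The rod median was then -0.11, against -0.007 over 6 arrays, and the ganglion cell median -0.064, against 0.055. Without PTC replicate 2 in place of replicate 1, the rod median was 0.111 and the ganglion cell median 0.109. The sign of both thus depended on which PTC array was left out. On slide 2 alone, 8 of 17 ganglion cell genes lay below and 1 above, beside 25.0% and 31.1%. For rods it was 7 and 9 of 21.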

How the data were processed

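Retinal RNA of 6 pools was measured on 6 Agilent 2-colour arrays. The scanner output, as deposited, gives intensity per spot for both channels and the software's log10 ratios. Per the file headers it came from Agilent Feature Extraction 10.7.3.1, while the submitters' processing notes name 9.3.2.1. The authors also deposited log2 ratio values, used as an alternative; against the scanner's log10 ratio they had r of 0.983 to 1.00 and a slope of 3.32, so they run as Cy5 over Cy3, and their centring stays unknown (medians -0.075 to 0.039).

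With limma 3.58.1 (R 4.3.3, version 1.17.8 of its data.table package), mean signals were corrected by normexp (offset 50) and normalized within arrays by loess, without 1377 control spots and 185 to 274 outlier spots per array, after which replicate spots were averaged. Single channels were compared after Aquantile normalization. Of 39429 probes, 26164 were matched to RefSeq genes by accession, 3123 by symbol and 910 by synonym, and 9232 kept the array's name. A probe was kept if, on 3 or more of the 6 arrays, either channel stood well above background (32511), and the brightest probe stood for a gene (26141 genes, 19503 with a symbol). A linear model with 1 coefficient per dose gave the contrast 10PTC minus PTC, with 4 residual and 3.40 prior degrees of freedom, Benjamini-Hochberg adjustment and a threshold of 0.05. The 6-array fit was also run on simulated ratios with independent noise and no slide effect. That run does not cover differences between slides or deviations that genes of an array share. Signal over background limits the precision (median Cy3 153 to 221 over 26 to 29, Cy5 187 to 347 over 47 to 48), as does the number of arrays.

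The members and the 39 lists (749 genes, 733 measured) were chosen with earlier results of these data known. Genes named are the 6 of smallest p per direction, up to 4 of smallest p per list, and Prss56, Hspa5, Xbp1, Atf3, Gfap and Ckm; members named because their arrays did not overlap, because of a promoter match, for a 2-fold difference or as overlapping examples were chosen after their values were seen. Not all genes that meet the rule are named. Alternatives are listed in the closing section; counts without PTC replicate 1 and on slide 2 alone, and the promoter search, were added after seeing the data. The unit intensity is linear and depth in reads does not apply.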

Additional observations from a re-analysis of the deposited data

How the results depend on the processing

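The count of genes past the threshold stayed 0 in both directions, in limma, with median centring, with the scanner software's own processed signals, with background left in or an offset of 0, with scale and Aquantile normalization, 2 other filters, outlier spots kept, the mean of all probes, the authors' table, slide as a fixed or random block, array weights, and trended or robust moderation. It was 18 higher and 2 lower on the Cy5 channel alone, and 0 to 1 lower with 1 array left out: without PTC replicate 3, Slurp1 passed (difference -4.19, adjusted p = 0.047), but doses and slides cannot then be told apart. Within slide 2 it was 0 in both directions, 1 higher on Cy5 alone, and 0 to 7 higher and 0 to 12 lower with a 10PTC array left out. With no test, 1 gene was at least 2-fold higher and 4 lower without overlap. Same-numbered arrays had r of deviations of -0.272, 0.147 and 0.197. With 3 arrays per dose over 2 slides, these values cannot decide whether the numbers pair the pools. With a replicate block in limma, 0 genes higher and 0 lower passed, and the smallest adjusted p was 0.762. Of 2174 values of the 87 named genes under these settings, 2155 kept their sign and were not called. The Cy5 channel alone called Ccn4 (-0.743) and BC065403 (-1.059) and turned Atf6 (-0.052), Cox4i1 (-0.021) and Edem1 (-0.012). Slide as a fixed block and slide 2 alone, which give 1 estimate, turned Ero1b (-0.084), Gfap (0.158) and Krt12 (0.344). Other turns were Ero1b with array weights (-0.015), Gfap with scale normalization (0.014) and the mean of its probes (0.002), and Rpl10a with median centring (0.007). With 1 array left out, Atf3 ranged from -0.067 to 0.556, Ero1b from -0.039 to 0.093 and Gfap from -0.367 to 0.183. None of the genes that turned was called, and the cause was not tested.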
